A study of Homo sapiens with 6 samples.

Results

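Transcript levels of the nuclear-encoded subunits of the mitochondrial respiratory chain were compared in cells of the line MOLM-13, which was established from human acute myeloid leukaemia. The series title names UC-764864, written UC-744864 in the series design text, as a compound that inhibits UBE2N, an enzyme that attaches ubiquitin in K63-linked chains. One group of 3 libraries came from cells given UC-764864 at 2 µM for 24 h, and the other group of 3 libraries from cells given DMSO, the solvent, for the same time. All cells are of this 1 established line, in the same serum-containing medium, and no label states that replicate libraries stem from independent cultures. The p-values therefore reflect the spread among these libraries, which may be technical. The subunits are the 49 rows, of 56638 in the count table, whose gene symbol is on a list of autosomal subunits of complexes I to IV. Of these, 29 belong to complex I, 4 to complex II, 7 to complex III and 9 to complex IV. NDUFA4, named after complex I, is counted with complex IV, where its product is now placed.

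The respiratory chain passes electrons from NADH and succinate to oxygen and pumps protons across the inner mitochondrial membrane. Complex I oxidises NADH, complex II oxidises succinate and is also an enzyme of the TCA cycle, complex III passes electrons from ubiquinol to cytochrome c, and complex IV reduces oxygen. Complexes I, III and IV combine subunits from mitochondrial and nuclear genes, whereas all subunits of complex II are nuclear. Many of the nuclear genes have promoters bound by NRF1 and by the ETS-family factor GABP, and acute myeloid leukaemia cells are known to rely on oxidative phosphorylation.

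Promoter stretches are shown for SDHD and SDHB, an anchor and an iron-sulfur subunit of complex II whose transcripts stood on opposite sides, and for NDUFS6, a complex I subunit with a large fold change. They are RefSeq sequences of build GRCh38.p14, read 5′ to 3′ on the strand of the gene, and capitals mark the NRF1 motif CGCATGCG and the ETS motif CCGGAAG on either strand. The SDHD stretch is chr11:112086754-112086803 on the plus strand, with the NRF1 motif starting 109 bases and the ETS motif 77 bases before the gene's start. The SDHB stretch is chr1:17054121-17054170 on the minus strand, with its ETS motif 128 bases before the start, and the NDUFS6 stretch is chr5:1801352-1801401 on the plus strand, with its NRF1 motif 45 bases before the start.
SDHD: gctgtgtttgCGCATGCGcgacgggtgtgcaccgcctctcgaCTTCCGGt
SDHB: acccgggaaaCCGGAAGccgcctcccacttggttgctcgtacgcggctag
NDUFS6: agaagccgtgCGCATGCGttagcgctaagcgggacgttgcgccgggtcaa

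RefSeq promoter windows, from 250 bases before to 50 bases after the gene's start, were matched for 41 of the 49 genes and searched on both strands. Only the first window of each of these genes was used, whereas the shares over all windows were taken without that limit. The NRF1 motif stood in 6 of the 41 windows (COX6A1, NDUFA8, NDUFB4, NDUFS6, NDUFS7 and SDHD), against 2.02% of all 35116 windows. A form 1 base longer at each end, searched first, stood in 3 of the 41 (NDUFA8, NDUFB4 and SDHD), against 1.24% of all windows. The ETS motif stood in 12, against 10.3% of all windows, and the YY1 motif AAGATGGC, whose AAG can coincide with the end of the ETS motif, in 8, against 2.89%. Of the 6 genes with the NRF1 motif, NDUFA8 was higher and SDHD lower after UC-764864, and the other 4 did not pass the test. A match is a run of letters and was not tested as a binding site.

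The UC-764864 libraries held 17073654 to 25014437 counts each, and the DMSO libraries 16136156 to 24511499. Levels are given as CPM, counts scaled to a common library size with TMM factors, and they are not corrected for transcript length. Library UDI0055 of the DMSO group holds 0 in 3799 rows at the end of the table, X-linked and mitochondrial genes among them, which were read as missing and left out for all libraries. None of the 49 subunits is among them. Libraries UDI0052 (UC-764864) and UDI0056 (DMSO) had the smallest shares of counts in genes with at least 60% GC, 8.75% and 8.95%, against 10.6% to 12.3% in the others. They also held the fewest counts of their groups, 17073654 and 16136156, so a low GC share and low depth come together in them. The myeloid markers CD33 and MPO stood at 103 to 138 and 74 to 108 CPM over the 6 libraries, and the monocyte marker CD14 at 0.259 to 0.474 CPM after UC-764864 and 0.198 to 0.45 CPM after DMSO. Of the 9 myeloid markers that could be tested, LYZ rose (0.88 ± 0.10 on the log2 scale, adjusted p = 0.00141), and CSF1R (−0.58 ± 0.13, adjusted p = 0.0179) and ITGAM (−1.02 ± 0.15, adjusted p = 0.00357) fell. The 10 myeloid markers summed to 6311 to 7312 CPM after UC-764864 and 4028 to 4277 CPM after DMSO, most of it LYZ. The 6 lymphoid markers summed to 1.23 to 1.74 CPM after UC-764864 and 1.88 to 2.61 CPM after DMSO, with 1 of the 2 that could be tested lower. The part of these markers in the results below was not tested.

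Few of the respiratory chain transcripts passed the test at the adjusted threshold. All 49 subunits could be tested, and 4 rose and 2 fell after UC-764864 (edgeR quasi-likelihood test, Benjamini-Hochberg adjusted p under 0.05 over 13490 genes). These are 8.16% and 4.08% of the subunits, against 5.11% of all genes tested that were higher and 8.13% that were lower, so the share of subunits called is near that of genes in general. The risers were NDUFA8, NDUFA12, NDUFB9 and NDUFB10, all accessory subunits of complex I, and the fallers were NDUFA11 of complex I and SDHD of complex II. The median log2 fold change, UC-764864 over DMSO, was 0.12 over the 49 subunits, 0.01 over all genes tested and 0.08 over the 6055 genes that averaged 30 CPM or more. Fold changes were above 0 for 33 subunits and below 0 for 16, and 67.3% above 0 compares with 51.3% of all genes and 60.6% of the genes at 30 CPM or more. For 15 subunits all treated libraries stood above all DMSO libraries, and for 7 they all stood below, where 19% of all genes were higher without overlap and 17% lower. Among the 6055 genes at 30 CPM or more, 1663 were higher and 823 lower without overlap. An unadjusted p under 0.05 was reached by 21 of the 49 subunits, by 4248 of all 13490 genes and by 2249 of those 6055.

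**Figure D1:**
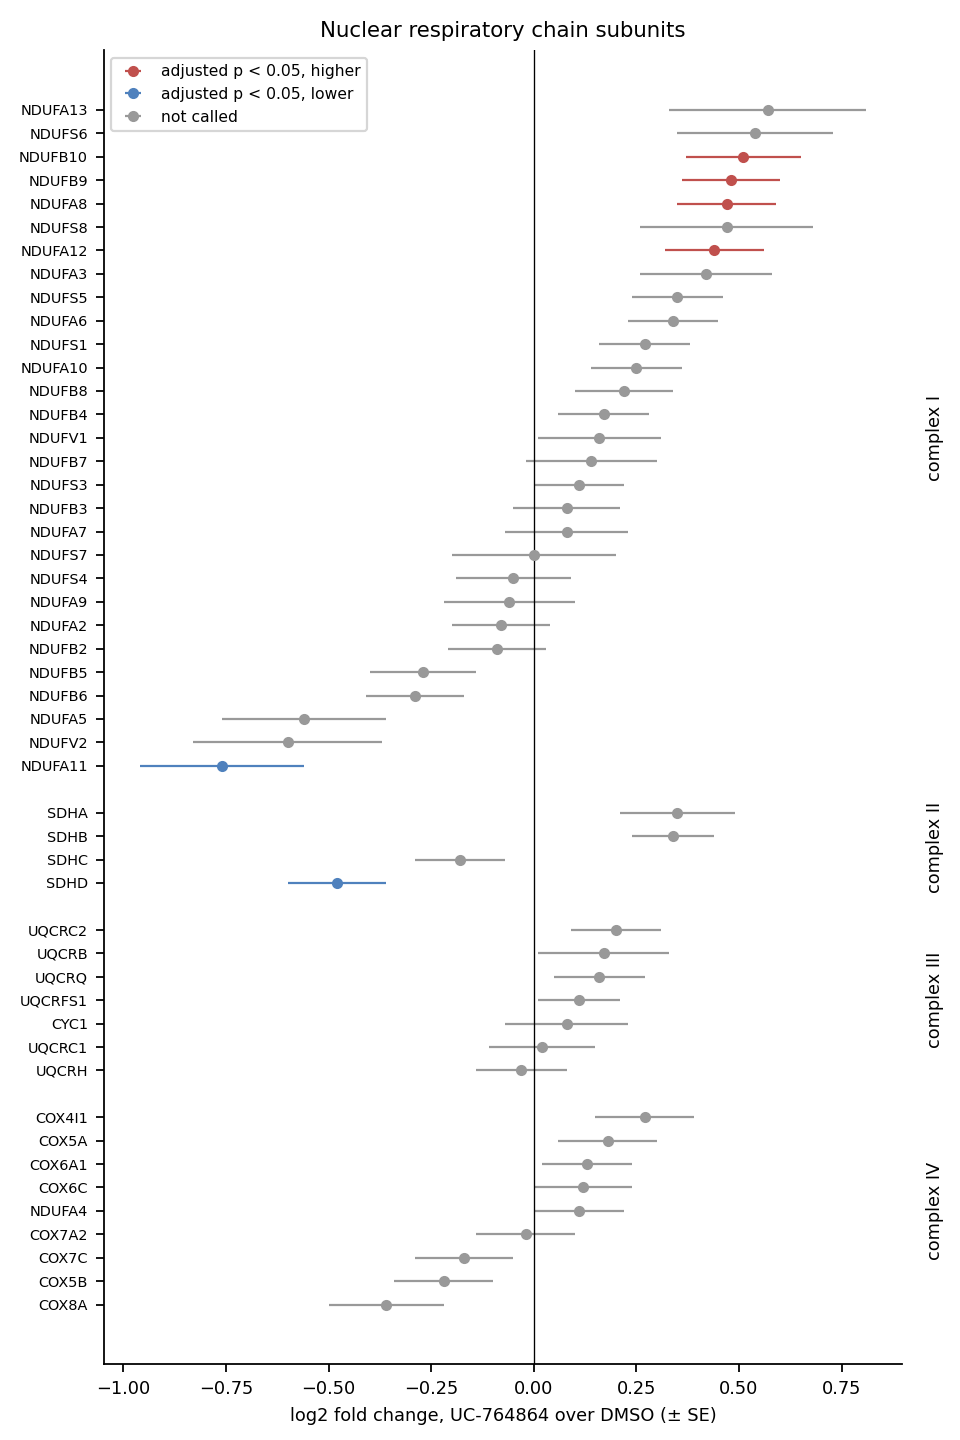
Log2 fold change, UC-764864 over DMSO, with its standard error (horizontal axis) for the 49 nuclear subunits, grouped by complex and ordered by fold change (vertical axis). Red and blue points are the 4 higher and 2 lower subunits with adjusted p under 0.05 in edgeR's test, and the 43 grey points did not pass.

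Complex I had 4 of 29 subunits higher (13.8%) and 1 lower (3.45%), against 5.11% and 8.13% of all genes tested. With edgeR 16 of the 29 had an unadjusted p under 0.05, against 4248 of 13490 genes. DESeq2 called 7 of the 29 higher and 2 lower, and 903 and 1309 of those 13490 genes. The median log2 fold change of complex I was 0.16, with a range from −0.76 to 0.57. NDUFA8, an accessory subunit that faces the intermembrane space, had 58.3, 58.3 and 58.5 CPM after UC-764864, against 44.5, 44.3 and 37.1 CPM after DMSO. The groups did not overlap, and it rose 1.39-fold (log2 fold change 0.47 ± 0.12 SE, adjusted p = 0.0256). NDUFB9, an accessory subunit of the membrane arm, had 434, 432 and 413 CPM after UC-764864, against 319, 333 and 265 CPM after DMSO. All 3 treated libraries lay above all DMSO libraries, and UDI0056 was the lowest of the DMSO group (0.48 ± 0.12, adjusted p = 0.0223). NDUFB10, also of the membrane arm, had 95.1, 83.2 and 83.2 CPM after UC-764864, against 54.5, 74.9 and 54.5 CPM after DMSO. UDI0055 stood above the other DMSO libraries but below every treated one, and NDUFB10 rose 1.42-fold (0.51 ± 0.14, adjusted p = 0.04). NDUFA12, an accessory subunit of the matrix arm, had 74.9, 79.4 and 66.2 CPM after UC-764864, against 53.2, 51.4 and 58.1 CPM after DMSO, again without overlap (0.44 ± 0.12, adjusted p = 0.0339).

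NDUFA11, an accessory subunit of the membrane arm, was the complex I subunit that fell. It had 17.7, 11.7 and 20.6 CPM after UC-764864, against 26, 34.3 and 24.1 CPM after DMSO, and the groups did not overlap. Its log2 fold change of −0.76 ± 0.20 (adjusted p = 0.0316) was the lowest of the 49 subunits. UDI0052 and UDI0056, with the smallest shares of counts in GC-rich genes, were the lowest libraries of their groups. Without UDI0052 the fold change was −0.59 (adjusted p = 0.0573), and with each library's GC trend removed −0.77 (adjusted p = 4.83e-04). In GENCODE 29, exons of other genes cover 12.1% of the NDUFA11 exon length, 9.65% from the same strand. Whether the counting used the strand is not given in the sources used here. By the same measure, exons of other genes cover 21% of NDUFB9, all from genes on the opposite strand, and none of NDUFA8, NDUFA12 or NDUFB10.

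Other accessory subunits of complex I spread to both sides. NDUFA13 and NDUFS6 had the largest positive fold changes of the complex, 0.57 ± 0.24 and 0.54 ± 0.19, with groups that overlapped and adjusted p of 0.125 and 0.079. NDUFS6, which is needed for a late step of complex I assembly, had 74.2, 57.4 and 70.9 CPM after UC-764864, against 47.1, 59.2 and 32.2 CPM after DMSO. It passed in 5 of 13 alternative settings, among them DESeq2 (adjusted p = 0.0449) and the fit without UDI0055 (0.76, adjusted p = 0.0131), with adjusted p from 0.00368 to 0.239 over all 13. The NDUFA accessory subunits had a median of 0.25, with 2 of 11 higher (18.2%) and 1 lower (9.09%), against 5.11% and 8.13% of all genes. For 8 of the 11 edgeR gave an unadjusted p under 0.05, and DESeq2 called 3 higher and 2 lower. The NDUFB subunits had a median of 0.14, with 2 of 9 higher and 0 lower. For 3 of the 9 edgeR gave an unadjusted p under 0.05, and DESeq2 called 2 higher and 0 lower. The 3 NDUFS accessory subunits had a median of 0.35, with 0 called by edgeR. For 2 of these 3 edgeR gave an unadjusted p under 0.05, and DESeq2 called 2 higher and 0 lower.

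None of the 6 core subunits of complex I measured here passed the test, with 3 at an unadjusted p under 0.05 and 0 called by DESeq2. These subunits carry the flavin and iron-sulfur clusters or line the path to ubiquinone. NDUFS1, which holds iron-sulfur clusters of the NADH-oxidising module, had 206, 231 and 201 CPM after UC-764864, against 164, 183 and 182 CPM after DMSO, without overlap but with adjusted p = 0.125 (0.27 ± 0.11). NDUFV1, the flavin subunit, had 237, 188 and 230.2 CPM after UC-764864, against 199, 230.1 and 156 CPM after DMSO, and the lowest library of each group was 1 of the GC-poor pair UDI0052 and UDI0056. NDUFS8 and NDUFS7, iron-sulfur subunits next to the ubiquinone site, followed the same pair. NDUFS8 had 61.2, 43.6 and 59.3 CPM after UC-764864 and 37.4, 52.8 and 28.1 CPM after DMSO (0.47 ± 0.21, adjusted p = 0.149). NDUFS7 had 99.5, 67.4 and 98.5 CPM after UC-764864 and 87.4, 112 and 65.6 CPM after DMSO, with a log2 fold change of 0.00 ± 0.20 that became −0.04 when library size alone set the scale. NDUFS3, a core subunit without a cofactor, averaged 117 ± 1.04 CPM in treated libraries, against 108 ± 5.18 CPM in DMSO libraries (SD, n = 3 per group; adjusted p = 0.508).

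NDUFV2, the partner of NDUFV1 in the flavin module, and NDUFA13, an accessory subunit also known as GRIM-19, were counted at very low levels. NDUFV2 had 1.44, 2.27 and 1.89 CPM after UC-764864, against 2.92, 2.45 and 3.03 CPM after DMSO, and NDUFA13 had 3.79, 3.17 and 4.05 CPM after UC-764864, against 3.31, 2.25 and 1.78 CPM after DMSO. NDUFV2 was lower in every treated library than in any DMSO library, with the second lowest fold change of complex I (−0.60 ± 0.23, adjusted p = 0.0967). NDUFV2 and NDUFA13 are the only subunits of the 49 with fewer than 100 counts in every library. Per kilobase of principal transcript in GENCODE 29, NDUFV2 stood at 2.01 CPM with UC-764864 and 3.01 CPM with DMSO, where NDUFV1 stood at 86.4 and 77.1 CPM. This measure depends on the annotated length. NDUFA9, with 8363 bases against 930 for NDUFV2, stood lower, at 1.69 CPM with UC-764864 and 1.76 CPM with DMSO. Exons of other genes on the same strand cover 28.4% of the NDUFV2 exon length and 21% of that of NDUFA13, and the row of the copy NDUFV2P1 held 48.6% to 103% of the NDUFV2 counts after UC-764864 and 39.1% to 58.3% after DMSO. The part of these overlaps in the low counts was not tested.

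**Figure D2:**
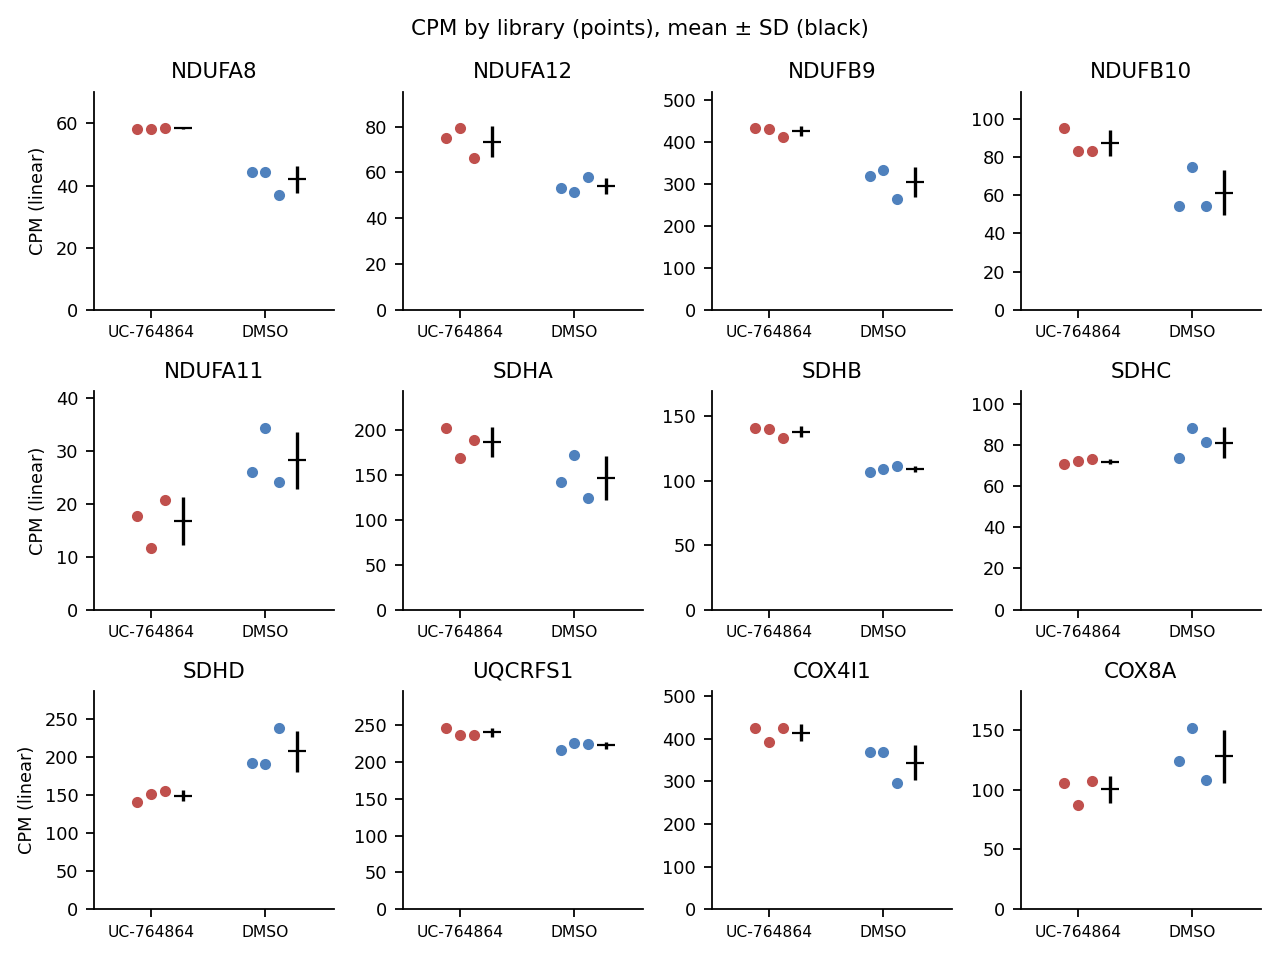
CPM on a linear axis starting at 0 for 12 subunits, with 1 point per library, UC-764864 (red) left of DMSO (blue), and the mean ± SD in black. NDUFA8, NDUFA12, NDUFB9 and NDUFB10 lie higher and NDUFA11 and SDHD lower in all 3 treated libraries than in any DMSO library, and SDHB and SDHD stand on opposite sides.

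In complex II 1 of 4 subunits, SDHD, fell and the other 3 did not pass. With edgeR 3 of the 4 had an unadjusted p under 0.05, and DESeq2 called 1 higher and 1 lower. SDHD, a membrane anchor that helps bind ubiquinone, had 141, 151 and 155 CPM after UC-764864, against 193, 191 and 239 CPM after DMSO. The groups did not overlap, and SDHD fell to 0.719 of the DMSO level (log2 fold change −0.48 ± 0.12, adjusted p = 0.0273). SDHC, the other membrane anchor, had 70.6, 72.2 and 73 CPM after UC-764864, against 73.7, 88.4 and 81.6 CPM after DMSO (−0.18 ± 0.11, adjusted p = 0.312). SDHB, the iron-sulfur subunit, had 141, 139.7 and 133 CPM after UC-764864, against 107, 109 and 111 CPM after DMSO, without overlap. Its log2 fold change of 0.34 ± 0.10 just missed the threshold (adjusted p = 0.0507), and it passed with DESeq2 (adjusted p = 0.0208). SDHA, the flavin subunit that oxidises succinate, had 203, 169.8 and 189 CPM after UC-764864, against 142, 173 and 125 CPM after DMSO, with groups that overlapped (0.35 ± 0.14, adjusted p = 0.104). Rows of SDHA copies held 6.11% to 6.6% of its counts after UC-764864 and 6.01% to 10.6% after DMSO.

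The level of SDHD relative to SDHB, a pair chosen after its values were seen, is given as a description. The log2 difference in CPM, SDHD minus SDHB, was 0.01, 0.11 and 0.22 in the UC-764864 libraries and 0.85, 0.81 and 1.11 in the DMSO libraries. Every treated library thus had the 2 transcripts nearer to equal CPM than any DMSO library. The summed CPM of the 4 subunits was 546 ± 11.9 after UC-764864 and 544 ± 25.1 after DMSO (SD, n = 3 per group). In GENCODE 29, exons of other genes cover 12.2% of the SDHD exon length, and none of SDHA or SDHB. Genes on the same strand as SDHD cover 11.2%, and TIMM8B overlaps SDHD on the opposite strand.

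No subunit of complex III passed, none of the 7 had an unadjusted p under 0.05, and DESeq2 called 0. The median log2 fold change was 0.11 and the values ran from −0.03 to 0.20, the narrowest range of the 4 complexes. CYC1, the heme-bearing cytochrome c1, had 601, 465 and 619 CPM after UC-764864, against 534, 615 and 443 CPM after DMSO, with the GC-poor libraries lowest in both groups (0.08 ± 0.15, adjusted p = 0.735). UQCRFS1, the Rieske iron-sulfur protein, had 247, 237 and 237 CPM after UC-764864, against 217, 226 and 225 CPM after DMSO, a small difference without overlap (0.11 ± 0.10, adjusted p = 0.476). UQCRC2, a core protein, had the largest value of the complex at 0.20 ± 0.11 (adjusted p = 0.245). UQCRB, a small subunit that contacts the ubiquinone site, was next at 0.17 ± 0.16 (adjusted p = 0.492). UQCRB had 688, 866 and 722 CPM after UC-764864 and 686, 509 and 822 CPM after DMSO, here with the GC-poor libraries highest. UQCRH, the hinge protein, and UQCRC1, the other core protein, stood at −0.03 ± 0.11 and 0.02 ± 0.13 (adjusted p = 0.869 and 0.926), and UQCRC1 was at −0.02 when library size alone set the scale.

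Complex IV likewise had 0 of 9 subunits called by edgeR or by DESeq2, with 2 at an unadjusted p under 0.05 and a median of 0.11. With each library's GC trend removed, 2 were higher and 2 lower, and those lower were COX5B (−0.37, adjusted p = 0.0109) and COX8A (−0.44, adjusted p = 8.54e-04), where 15.9% of all genes were higher and 15.2% lower. COX4I1, which regulates the oxidase in response to ATP, had 426, 391 and 426 CPM after UC-764864, against 368, 368 and 296 CPM after DMSO, without overlap (0.27 ± 0.12, adjusted p = 0.143). COX8A, a small membrane subunit, had 106, 87.6 and 107 CPM after UC-764864, against 124, 152 and 108 CPM after DMSO, and the highest treated library lay just below the lowest DMSO library (−0.36 ± 0.14, adjusted p = 0.113). COX8A also passed without UDI0052 and UDI0056 (−0.40, adjusted p = 0.0346) and without UDI0056 alone. COX5A and COX5B, subunits that face the matrix, stood on opposite sides, at 0.18 ± 0.12 and −0.22 ± 0.12 (adjusted p = 0.32 and 0.238). COX5A averaged 157 ± 5.79 CPM in treated and 139 ± 15.3 CPM in DMSO libraries, and COX5B averaged 179 ± 23.4 CPM in treated and 208 ± 10.3 CPM in DMSO libraries (SD, n = 3 per group). The other 5 subunits, which include NDUFA4, ran from −0.17 to 0.13.

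**Figure D3:**
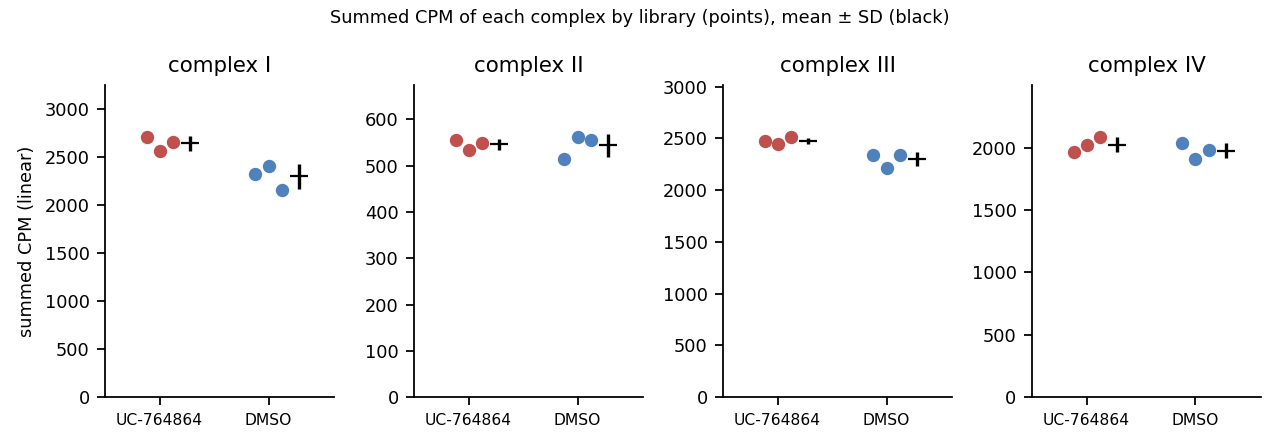
Summed CPM of the nuclear subunits of each complex on linear axes starting at 0, with 1 point per library, UC-764864 (red) left of DMSO (blue), and the mean ± SD in black. For complexes I and III the lowest treated library lies above the highest DMSO library, and for complexes II and IV the groups overlap.

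Set side by side, the complexes differed in the spread of their subunits more than in their medians, which were 0.16, 0.08, 0.11 and 0.11 for complexes I, II, III and IV. In the same order the quartiles were −0.06 and 0.42, −0.25 and 0.34, 0.05 and 0.17, and −0.17 and 0.13, over 29, 4, 7 and 9 subunits. Such a spread also depends on the number of subunits and on counting error, and its difference between complexes was not tested. The median of complex II was 0.04 without UDI0054, without UDI0056 or when library size alone set the scale, and 0.12 without UDI0055. That of complex IV was 0.01 without UDI0052, 0.04 without UDI0055 and 0.06 when library size alone set the scale. The summed CPM of complex I was 2709.8, 2564 and 2666 after UC-764864, against 2330.5, 2411 and 2164 after DMSO, a ratio of 1.15. That of complex III was 2474, 2450.2 and 2511 after UC-764864, against 2343, 2219 and 2337 after DMSO, a ratio of 1.08. Neither pair of groups overlapped. The sums of complex II had a ratio of 1.00 and those of complex IV of 1.02, and in both the groups overlapped. These sums weigh subunits by their counts and were not tested. In bulk RNA a change in every cell and a change in some of the cells cannot be told apart. Across the 49 subunits the log2 fold change and the GC content of the transcript had a Pearson correlation of 0.24, against 0.20 across 12176 genes, in the same 6 libraries.

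The number of calls changed with the library left out, among subunits and among all genes, and the cause of this was not tested. Without UDI0051, UDI0052, UDI0053 or UDI0054, 0 subunits passed as higher and 0, 1, 1 and 0 as lower, whereas without UDI0055 there were 9 and 2, and without UDI0056 3 and 2. In the same 6 fits 62, 295, 166, 94, 1525 and 512 of all genes were higher and 278, 947, 460, 475, 1729 and 912 lower. With each library's GC trend removed, 14 subunits were higher and 5 lower, where 15.9% and 15.2% of all genes were called in that setting, and the 6 subunits named above were among them.

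**Figure D4:**
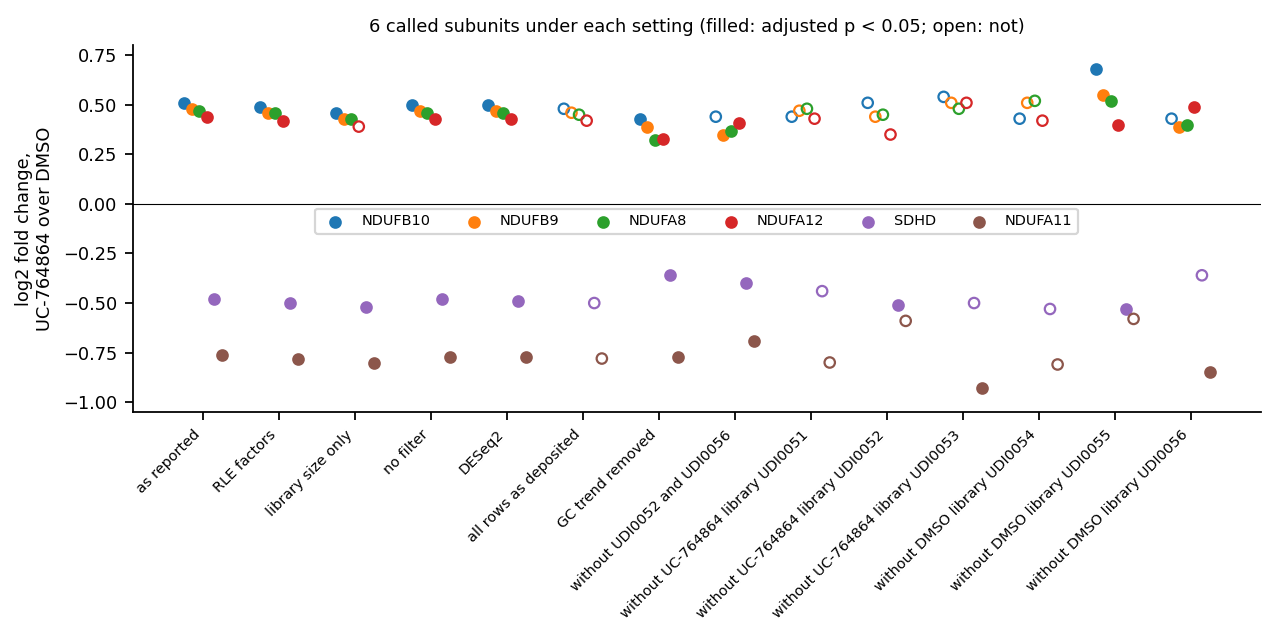
Log2 fold change, UC-764864 over DMSO (vertical axis), of the 6 called subunits in the comparison as reported and under 13 alternative settings (horizontal axis), with filled points where adjusted p was under 0.05. NDUFA8, NDUFA12, NDUFB9 and NDUFB10 stayed above 0 and NDUFA11 and SDHD below 0 throughout, while the call was lost in 5 to 7 of the 13 settings.

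Genes around the chain were read from lists of known members. Of the 17 ATP synthase genes, 0 were called by edgeR, 6 had an unadjusted p under 0.05 and DESeq2 called 1, which was ATP5J, a subunit of the stalk. The median of the list was 0.12, and ATP5J had 151, 162 and 139 CPM after UC-764864, against 119.6, 119 and 122 CPM after DMSO (0.33 ± 0.11, adjusted p = 0.0671; DESeq2 adjusted p = 0.0463). Among 12 TCA cycle enzymes, with a median of 0.26, CS rose and 0 fell, against 5.11% of all genes higher and 8.13% lower. An unadjusted p under 0.05 was reached by 6 of the 12, and DESeq2 called 1 higher and 0 lower. Without overlap 7 of the 12 were higher and 0 lower, against 19% and 17% of all genes. CS, the citrate synthase that opens the cycle, had 263, 258 and 246 CPM after UC-764864, against 161, 197 and 150.0 CPM after DMSO (0.59 ± 0.12, adjusted p = 0.0135). Of 14 genes for electron carriers and ubiquinone synthesis, 0 were called by edgeR, 2 had an unadjusted p under 0.05 and DESeq2 called 1, CYCS. CYCS, which encodes cytochrome c, had 208, 243 and 217 CPM after UC-764864, against 253, 282 and 413 CPM after DMSO, where UDI0056 stood apart (−0.50 ± 0.17, adjusted p = 0.067).

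Few assembly factors were called by edgeR, against 5.11% of all genes higher and 8.13% lower. Of 14 factors of complex I, TMEM186 rose (0.53 ± 0.14, adjusted p = 0.0329) and TMEM126B fell (−0.61 ± 0.15, adjusted p = 0.0214), both of them parts of the assembly complex for the membrane arm. With edgeR 5 of these 14 had an unadjusted p under 0.05, against 4248 of 13490 genes. DESeq2 called 3 of the 14 higher and 1 lower, and 903 and 1309 of those 13490 genes. TMEM126B had 30.8, 39.9 and 32.1 CPM after UC-764864, against 49.5, 46.8 and 61 CPM after DMSO. Of 23 tested factors of complex IV, COX11, a copper chaperone, fell and 0 rose, where 6 had an unadjusted p under 0.05 and DESeq2 called 0 higher and 2 lower. COX11 had 31.1, 30.4 and 31.9 CPM after UC-764864, against 41, 44.1 and 59.6 CPM after DMSO (−0.63 ± 0.15, adjusted p = 0.0209). The factors of complexes II and III, 4 and 6 genes, gave 0 calls with edgeR and with DESeq2 and 1 unadjusted p under 0.05 each, with medians of −0.27 and 0.03. Their smallest adjusted p belonged to SDHAF4, listed in the table under its older symbol C6orf57 (−0.36 ± 0.15, adjusted p = 0.122), and to LYRM7, a chaperone of the Rieske protein (−0.36 ± 0.14, adjusted p = 0.105).

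Of 12 tested nuclear regulators, 2 rose (16.7%) and 1 fell (8.33%), against 5.11% and 8.13% of all genes. With edgeR 3 of the 12 had an unadjusted p under 0.05, and DESeq2 called 2 higher and 1 lower. PPARGC1B and PPRC1, coactivators of the PGC-1 family, rose by 0.56 ± 0.12 and 0.59 ± 0.15 on the log2 scale (adjusted p = 0.0162 and 0.0303). PPARGC1B had 41.8, 38.4 and 36.5 CPM after UC-764864, against 26.9, 28.1 and 23.9 CPM after DMSO. TFAM, which packages mitochondrial DNA and starts its transcription, had 81.9, 104 and 82.7 CPM after UC-764864, against 119.7, 125 and 158 CPM after DMSO (−0.58 ± 0.14, adjusted p = 0.0241). Without UDI0051 or UDI0054, none of PPARGC1B, PPRC1, TFAM, CS, TMEM126B and TMEM186 passed, and without UDI0053 only PPARGC1B and CS of these 6 did. COX11 was lost without UDI0051 or UDI0053, and TMEM186 also without UDI0052 or UDI0056. Of the tissue-specific isoforms, only NDUFA4L2 could be tested, with means of 1.79 CPM in treated and 1.65 CPM in DMSO libraries (0.11 ± 0.21, adjusted p = 0.776), and COX4I2, COX6A2, COX6B2, COX7A1 and COX8C were too low for a test.

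The mitochondrially encoded partners of these subunits are missing in UDI0055 and were tested in the other 5 libraries over all rows, 3 of UC-764864 against 2 of DMSO. Of 11 such genes of complexes I, III and IV, 9 rose and 0 fell, where 9.88% of 14186 genes were higher and 13.9% lower in that fit. An unadjusted p under 0.05 was reached by all 11, and DESeq2 called 10 higher and 0 lower. MT-ND1, a membrane subunit of complex I, had 4129, 4071 and 3634 CPM after UC-764864, against 2423 and 2596 CPM after DMSO (0.65 ± 0.10, adjusted p = 0.00158). MT-ND4L, also of complex I, MT-CYB, the cytochrome b of complex III, and MT-CO2, the copper-binding subunit of complex IV, rose by 0.69 ± 0.12, 0.67 ± 0.11 and 0.63 ± 0.10 on the log2 scale (adjusted p = 0.00358, 0.00181 and 0.00229). Of those that did not pass, named after their values were seen, MT-ND6 was at 0.43 ± 0.16 and MT-ND3 at −0.28 ± 0.13 (adjusted p = 0.0745 and 0.128). Without UDI0054 as well, where the lone DMSO library is assumed to vary like the others, MT-ND3 passed as lower (−0.49, adjusted p = 0.0109). The median over the 11 genes was 0.54. Without UDI0055, the nuclear subunits of complexes I, II, III and IV had medians of 0.25, 0.12, 0.13 and 0.04 in the fit without the missing rows. The difference between mitochondrial and nuclear genes was not tested.

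**Figure D5:**
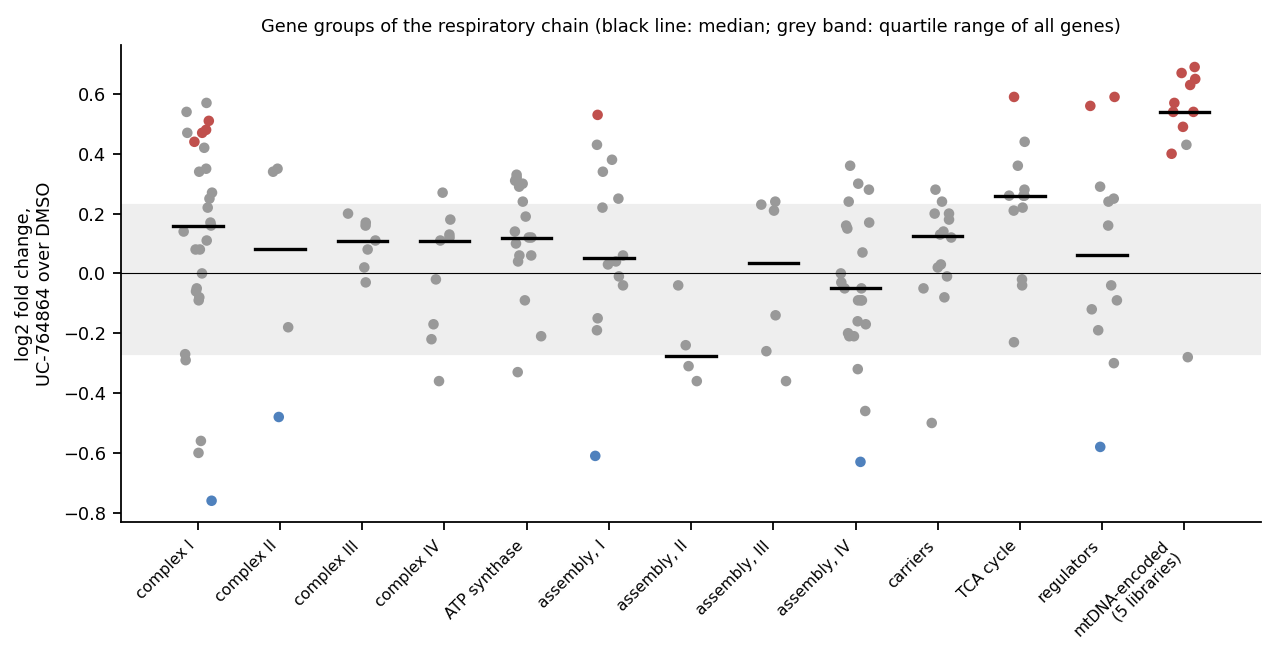
Log2 fold change, UC-764864 over DMSO (vertical axis), of each tested gene in the 4 complexes and 9 surrounding gene groups, with red and blue points for genes called higher and lower, black lines for group medians and a grey band for the range from −0.27 to 0.23 between the quartiles of all genes. The complexes' medians lie inside the band, and that of the complex II assembly factors is at its lower edge (−0.27). The medians of the TCA cycle enzymes (0.26) and of the mitochondrially encoded genes, from 5 libraries (0.54), lie above it.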

How the data were processed

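Per the labels' protocols, poly(A) RNA was sequenced in paired ends of 75 bp, in 6 libraries. The authors deposited raw counts, whole numbers of reads per gene. The submitters' processing notes name GRCh37 and the tools featureCounts 1.5.2, HISAT2 2.0.5 and FastQC 0.11.7, without roles. Which annotation release was used, and whether strand was, is not given in the sources used here. Columns were grouped by the deposited sample sheet.

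The analysis used edgeR 4.0.16 under R 4.3.3. Runs of 0 in 1 library of at least 100 rows, holding rows with at least 50 counts in every other library, were read as missing, which left 52839 rows. After filterByExpr and TMM scaling, glmQLFTest was run on a glmQLFit model that held treatment alone. The Benjamini-Hochberg adjustment covered all 13490 genes tested, with a threshold of 0.05. The standard error is the size of the log2 fold change over the square root of F. DESeq2 1.42.0 was an alternative. The script was tested on simulated data. Pairs of libraries differed by a chi-square of 4.68 to 85.4 per degree of freedom, so none was treated as a duplicate. A count of 3, 0.123 to 0.198 CPM, is the floor, for counting error only.

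The 49 members, the lists, the tests and the treatment of missing rows were chosen with earlier results of these data known. Named subunits are those called, the 2 highest and 2 lowest fold changes per complex, all of complex II, the core subunits of complex I, CYC1, UQCRFS1, COX4I1, COX5A and COX5B. COX6A1 and NDUFB4 are also named for a promoter motif, and COX6A1, COX6C, NDUFA4, NDUFA5, NDUFA9 and NDUFB7 for another measure. From other lists up to 4 called genes per direction were named, or the smallest p. Alternatives were RLE factors, library size only, no filter, DESeq2, all rows, a GC trend removed (lowess, span 0.3) and libraries left out. GC content, transcript lengths and exon overlaps come from GENCODE 29 (GRCh38), matched by symbol.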

Additional observations from a re-analysis of the deposited data

How the results depend on the processing

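All 6 called subunits kept their direction under each of the 13 alternatives. As reported, 690 genes were higher and 1097 lower, with 4 and 2 subunits and 4 and 3 genes of the other nuclear lists. With all rows kept as deposited these were 22 and 125, 0 and 0, and 0 and 0. With the GC trend removed they were 1934 and 1854, 14 and 5, and 19 and 8, where the reported fit called 657 and 1022 of the same 12176 genes, and the medians of complexes II and III were 0.03 and 0.05. Without a filter, 7 subunits were higher, 1676 genes lower and 5 list genes lower. DESeq2 called 904 genes higher and 1311 lower, 8 subunits higher and 3 lower, and 7 list genes higher and 5 lower. Without UDI0052 and UDI0056, 4 subunits and 6 list genes were lower, and the median of complex IV was 0.03. Leaving out 1 library gave 62 to 1525 genes higher and 278 to 1729 lower, 0 to 9 subunits higher and 0 to 2 lower, and 0 to 13 list genes higher and 0 to 5 lower. It also gave complex IV medians of 0.01 to 0.14, and 8 to 10 mitochondrially encoded genes higher and 0 to 1 lower. The cause of these changes was not tested. Sign changes met only subunits that never passed. NDUFS7 was at −0.02 with RLE factors, −0.04 with library size only, −0.01 without a filter, −0.01 with DESeq2, −0.02 with all rows, −0.04 with the GC trend removed, −0.03 without UDI0052 and UDI0056, and −0.17 to 0.21 with 1 library left out. UQCRC1 was at −0.02 with library size only, −0.00 with all rows, −0.05 with the GC trend removed and −0.07 to 0.13 with 1 library left out. NDUFS3 was at −0.01 with the GC trend removed, and with 1 library left out UQCRH ran from −0.11 to 0.03 and CYC1 from −0.03 to 0.20. Counting NDUFA4 with complex I gave medians of 0.15 for complex I and 0.05 for complex IV. No paired analysis was possible because the columns of the count table carry no replicate numbers.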

Other observations

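For most subunits, copies of the gene held few counts. Rows named after a copy exist for 23 of the 49 subunits, and they held 10% or more of the subunit's counts in some library for 2 of them, NDUFV2 and SDHA. The copies of COX6A1 held 5.07% to 8.1% of its counts after UC-764864 and 5.63% to 7.13% after DMSO. The 17 rows of COX6C copies held at most 0.136% of its counts in any library. In GENCODE 29, exons of other genes overlap those of 25 of the 49 subunits, and on the same strand they cover more than 20% of the exon length of 5.

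Transcript GC content ran from 35% in NDUFA5 to 65% in NDUFB7. NDUFA5, an accessory subunit of the matrix arm, had 51.4, 67.8 and 55.4 CPM after UC-764864, against 70.3, 68.4 and 118 CPM after DMSO, where UDI0056 stood far above the rest. Its log2 fold change was −0.56 (adjusted p = 0.0832) as reported and −0.04 (adjusted p = 0.73) with the GC trend removed. It passed as lower in 4 of 13 alternatives, among them DESeq2 (adjusted p = 0.042) and the fit without UDI0052 and UDI0056 (−0.40, adjusted p = 0.0226), with adjusted p from 0.00151 to 0.73 over all 13. UQCRB went the other way, at 0.17 as reported and 0.46 (adjusted p = 0.00263) with the GC trend removed. Both genes were named here after their values were seen.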
